A study of Homo sapiens with 4 samples.

Results

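The genes described here are 10 human genes of iron storage, iron uptake, heme breakdown and iron sensing, taken from the 58735 genes of the deposited tables by matching their Ensembl identifiers to FTH1, FTL, NCOA4, TFRC, SLC11A2, HMOX1, BLVRA, BLVRB, ACO1 and IREB2 in GENCODE release 29. All 10 were found. All 10 also had a mean of at least 1 FPKM (fragments per kilobase of exon, scaled to the size of the library) over the libraries, as did 12296 genes in all, although HMOX1 reached that mean only through the libraries with SD70, and the other 9 were at 1 FPKM or more in every library.

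RNA was sequenced from MOLM13, an established acute myeloid leukaemia line with the MLL::AF9 fusion, after 12 h of exposure to the vehicle DMSO, to SD70 alone, to MI-503 alone or to both agents in combination. SD70 is known as an inhibitor of a histone demethylase of the KDM4 family, and MI-503 is a menin inhibitor that keeps menin from its site on MLL proteins. The study set out to find what underlies the synergy of the pair in this leukaemia. There was 1 library per treatment and 1 cell line, so no value below has a replicate, and no source used here gives the doses or the number of cultures.

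Cells take up iron as transferrin bound to the transferrin receptor, move it out of endosomes through a divalent metal transporter, and store what they do not use inside ferritin, a shell built of heavy and light chains. Heme oxygenase opens the heme ring and frees its iron, and biliverdin reductases turn the other product into bilirubin. When iron is scarce, the iron regulatory proteins bind hairpins called iron-responsive elements (IREs), which blocks translation of the ferritin messages and stabilizes the transferrin receptor message; ferritin protein can therefore change without a change in its RNA, and only RNA was measured here.

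Those hairpins are shown because they set ferritin apart from TFRC by the direction of that control. Ferritin carries the element in front of the coding sequence, and TFRC carries copies behind it. A search of GENCODE release 29 transcripts on GRCh38 looked for the letters CNNNNNCAGTGN followed by 5 bases that pair (G-U pairs allowed) with the 5 bases before the loop, on the transcript's own strand. Capitals mark the loop in the following 29-base sequences, written 5′ to 3′ as the strand of the RNA with T for U.
FTH1, 5′UTR, chr11:61967574-61967602, minus strand: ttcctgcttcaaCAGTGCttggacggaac
FTL, 5′UTR, chr19:48965335-48965363, plus strand: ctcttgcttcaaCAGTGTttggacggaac
TFRC, 3′UTR, chr3:196050979-196051007, minus strand: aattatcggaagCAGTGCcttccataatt
TFRC, 3′UTR, chr3:196050575-196050603, minus strand: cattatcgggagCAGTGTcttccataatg
TFRC, 3′UTR, chr3:196050510-196050538, minus strand: ctgtatcggagaCAGTGAtctccatatgt
TFRC, 3′UTR, chr3:196050463-196050491, minus strand: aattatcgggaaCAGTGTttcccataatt

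The ferritin elements were identical at 26 of 29 bases, the differences being T1C, C4T and C18T with the FTH1 base first and positions counted from the 5′ end. The 4 TFRC elements shared 18 to 25 of 29 bases with each other and 9 to 13 with the ferritin elements. Such matches occurred in the 5′UTR of 36 of 18661 protein-coding genes (0.193%) and in the 3′UTR of 132 of 19059 (0.693%). The other 7 genes had no match to these letters in either UTR; a match or its absence is a description of the sequence and not of binding.

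The ferritin chains had their highest levels in the libraries with SD70. FTL, the ferritin light chain (ENSG00000087086, chr19:48965301-48966878), was at 2201 FPKM with DMSO, 4831 with SD70, 2885 with MI-503 and 4400 with the combination, from 29205 to 65616 reads. The mean level ranked at place 11 among the 12296 genes. The ratio of SD70 to DMSO was 2.19 (95% counting interval 2.16 to 2.22), and that of the combination to MI-503, which shares no library with it, was 1.53 (1.51 to 1.54). Such intervals compare one library with another, hold counting error alone, and treat PCR reads without a molecular identifier as if each were its own molecule.

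FTH1, the ferritin heavy chain, whose ferroxidase site loads iron into the shell (ENSG00000167996, chr11:61959718-61967660), was at 63.3 FPKM with DMSO, 194 with SD70, 85.6 with MI-503 and 159 with the combination. Here too the SD70 libraries were the highest, with the MI-503 library between them and DMSO. The ratio of SD70 to DMSO was 3.07 (2.92 to 3.23), and 1.84% of all genes were at least as high in that comparison on the log2(FPKM + 1) scale. SD70 on top of MI-503 gave 1.86 (1.77 to 1.95).

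NCOA4, the receptor that carries ferritin to lysosomes so that its iron is released, was at 56.5 FPKM with DMSO, 86.4 with SD70, 80.0 with MI-503 and 87.9 with the combination. DMSO was the lowest library and the other 3 lay close together. Against DMSO the ratio was 1.53 (1.46 to 1.60) for SD70 and 1.42 (1.36 to 1.48) for MI-503, comparisons that share the DMSO library, while MI-503 on top of SD70 gave 1.02 (0.981 to 1.06), an interval that holds 1.

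The processed copies of the ferritin genes took few reads, which matters because near-identical copies can split reads in a way the deposited values do not show. The 25 FTH1P copies together held 34 reads with DMSO, 66 with SD70, 49 with MI-503 and 69 with the combination, between 1.08% and 1.81% of the reads of FTH1. The 16 FTLP copies together held 2 to 9 reads per library. FTH1P2 had the highest mean level of them, at 1.45, 2.82, 2.95 and 2.35 FPKM in the same order. FTH1 also overlaps exons of BEST1 on the opposite strand over 1267 bases, and no source used here gives the strand setting of the counting; BEST1 held 30 to 47 reads per library against 1942 or more for FTH1. The shared bases are part of 2030 exon bases of FTH1, so the FTH1 level and the ratios to TFRC and FTL given for it are uncertain by an amount these values do not show.

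**Figure D1:**
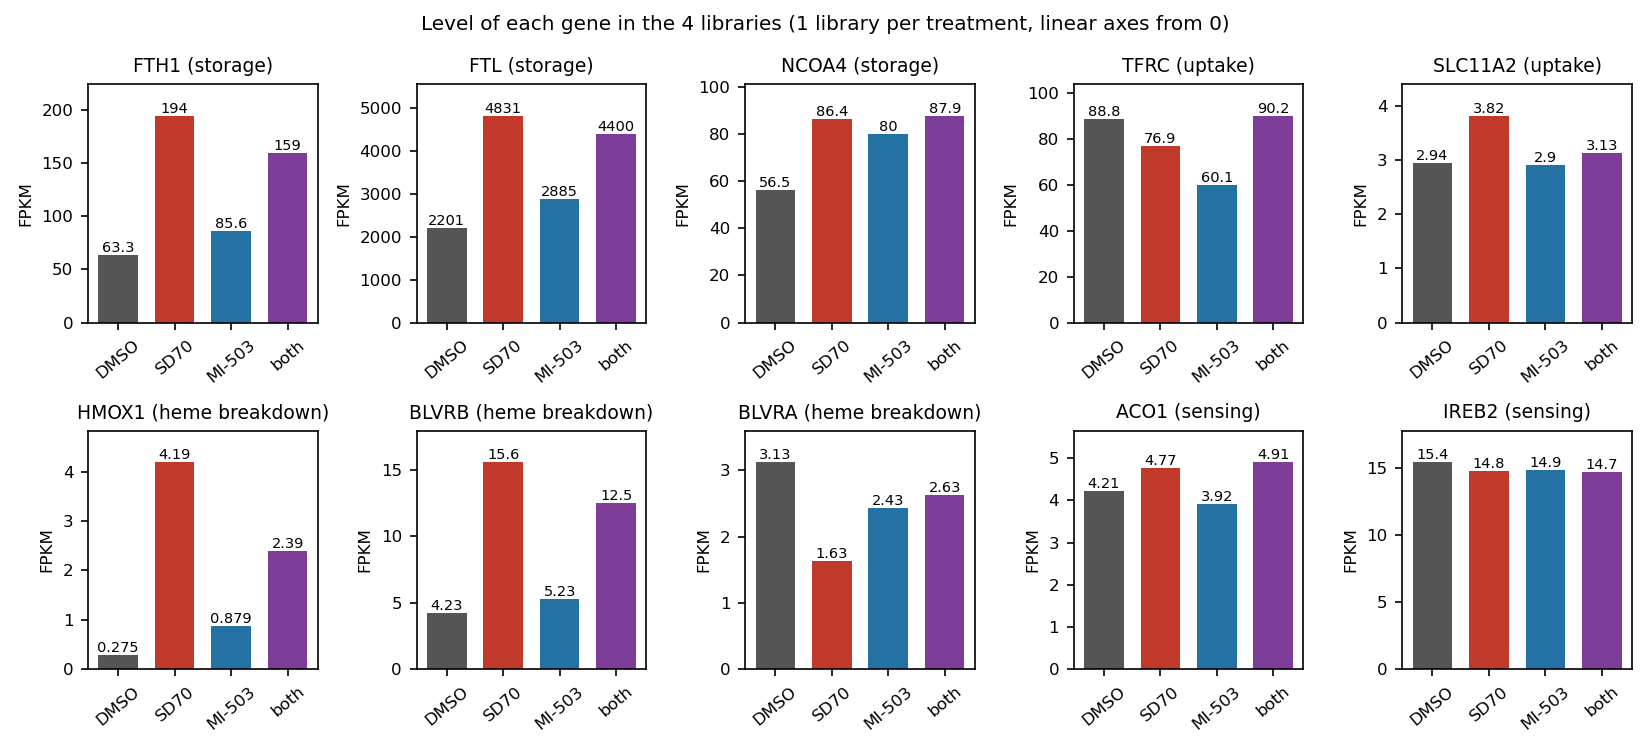
Level in FPKM (linear axes from 0, a scale of its own for each gene) of the 10 genes in the 4 libraries, 1 bar per library, with "both" for the combination. FTH1, FTL, HMOX1 and BLVRB are highest in the libraries with SD70, and TFRC is lowest with MI-503 at 60.1 FPKM.

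Of the uptake genes, TFRC did not follow ferritin. TFRC, the transferrin receptor (ENSG00000072274, chr3:196027183-196082189), was at 88.8 FPKM with DMSO, 76.9 with SD70, 60.1 with MI-503 and 90.2 with the combination. Each agent alone was below DMSO, and the combination was level with it at a ratio of 1.02 (0.988 to 1.04). The ratio of MI-503 to DMSO was 0.676 (0.657 to 0.697), and 2.83% of all genes were at least as low in that comparison. Against SD70 alone the combination stood at 1.17 (1.14 to 1.20), so MI-503 went with less TFRC in the absence of SD70 and with more in its presence. SD70 likewise gave 0.866 (0.842 to 0.891) against DMSO and 1.501 (1.46 to 1.55) on top of MI-503. With 1 library per treatment, neither change of direction was tested. The drop with SD70 alone depended on the scaling of the libraries. Its fold on the log2(FPKM + 1) scale was -0.20 as run, -0.10 with an equal FPKM total and -0.09 with an equal read total. The fold of the combination against DMSO moved in the same way, from 0.02 to 0.08 and 0.10.

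SLC11A2, the divalent metal transporter DMT1, was at 2.94 FPKM with DMSO, 3.82 with SD70, 2.90 with MI-503 and 3.13 with the combination. Only the SD70 library stood apart from DMSO beyond counting error, at a ratio of 1.30 (1.15 to 1.47), and SD70 on top of MI-503 gave 1.08 with an interval that holds 1 (0.947 to 1.23).

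For SD70 against DMSO, the heme breakdown genes held the largest ratio of the 10, that of HMOX1, and also the lowest, that of BLVRA. HMOX1, the inducible heme oxygenase (ENSG00000100292, chr22:35380361-35394214), was at 0.275 FPKM with DMSO, 4.19 with SD70, 0.879 with MI-503 and 2.39 with the combination, from 10, 156, 33 and 89 reads. The SD70 libraries were the highest and DMSO the lowest, and every ratio rests on few reads. The ratio of SD70 to DMSO was 15.2 (8.07 to 32.4) and that of the combination to MI-503 was 2.72 (1.81 to 4.19). MI-503 alone stood at 3.19 times DMSO (1.54 to 7.27), and the combination at 0.571 of SD70 (0.435 to 0.745).

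BLVRB, biliverdin reductase B (chr19:40447765-40465840), was at 4.23 FPKM with DMSO, 15.6 with SD70, 5.23 with MI-503 and 12.5 with the combination. The level was highest with SD70 and next with the combination, and MI-503 alone did not differ from DMSO beyond counting error (1.24, 0.955 to 1.61). The ratio was 3.68 (2.97 to 4.59) for SD70 against DMSO and 2.38 (1.95 to 2.93) for the combination against MI-503.

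BLVRA, the reductase that makes the main bilirubin isomer of the adult, was at 3.13 FPKM with DMSO, 1.63 with SD70, 2.43 with MI-503 and 2.63 with the combination, from 86, 46, 69 and 74 reads. SD70 was the low library, at 0.522 of DMSO (0.357 to 0.756), whereas on top of MI-503 SD70 gave 1.08 (0.769 to 1.52). The level of BLVRB was 1.35 times that of BLVRA with DMSO, 9.54 times with SD70, 2.16 times with MI-503 and 4.75 times with the combination, on the FPKM scale, which divides by gene length.

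HMOX2, the constitutive heme oxygenase, was lower in both libraries with SD70. It was at 14.03 FPKM with DMSO, 6.82 with SD70, 12.8 with MI-503 and 8.20 with the combination. The ratio was 0.486 (0.430 to 0.548) for SD70 against DMSO. In the additive limma fit given below, which has 1 residual degree of freedom, the adjusted p was 0.0275. The SD70 term of that fit called 0 genes of all without the mean-variance trend, and 0 without the filter on low values. HMOX1 stood at 0.0196 of the HMOX2 level with DMSO, 0.615 with SD70, 0.0688 with MI-503 and 0.292 with the combination. HMOX1 was therefore the less abundant oxygenase RNA in all 4 libraries.

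The iron sensors lay near their DMSO level in every library. ACO1, iron regulatory protein 1 and, with its iron-sulfur cluster, the cytosolic aconitase, was at 4.21 FPKM with DMSO, 4.77 with SD70, 3.92 with MI-503 and 4.91 with the combination. IREB2, iron regulatory protein 2, whose protein is degraded when iron is plentiful, was at 15.4, 14.8, 14.9 and 14.7 FPKM in the same order. The ratio of SD70 to DMSO was 0.956 for IREB2, with an interval that holds 1 (0.904 to 1.01), and 1.13 for ACO1 (1.001 to 1.28). On top of MI-503, SD70 gave 1.25 for ACO1 (1.11 to 1.42).

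Within a library, the balance of ferritin heavy chain and transferrin receptor RNA differed between treatments, which is a ratio of levels on the FPKM scale. FTH1 stood at 0.713 of TFRC with DMSO (0.679 to 0.748), 2.53 with SD70 (2.45 to 2.61), 1.42 with MI-503 (1.36 to 1.49) and 1.76 with the combination (1.70 to 1.82). DMSO was the library in which the receptor RNA exceeded FTH1. FTL exceeded FTH1 in every library, 34.8 times with DMSO, 24.8 with SD70, 33.7 with MI-503 and 27.7 with the combination, so the excess of light chain was smaller in both SD70 libraries. In a bulk sample, a change in the share of cells of a type and a change in RNA per cell cannot be told apart.

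**Figure D2:**
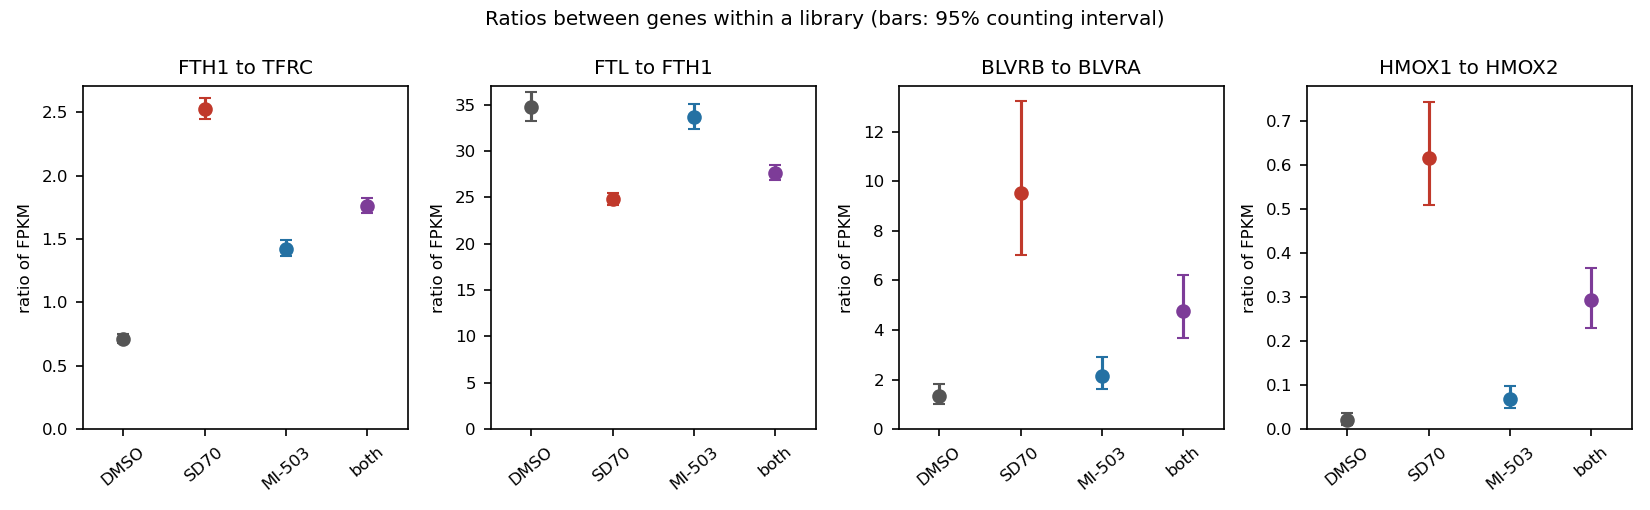
Ratios of FPKM between gene pairs within each library (linear axes from 0, points with 95% counting intervals, 1 library per treatment). FTH1 to TFRC runs from 0.713 with DMSO to 2.53 with SD70, and BLVRB to BLVRA from 1.35 to 9.54.

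Counted by fold on the log2(FPKM + 1) scale, where at least 2-fold is the rule of size, SD70 against DMSO had 4 of the 10 genes higher (FTH1, FTL, HMOX1 and BLVRB) and 0 lower. Of all 12296 genes, 12.4% were at least 2-fold apart, 6.01% higher and 6.37% lower. HMOX1 reached a mean of 1 FPKM only through the libraries with SD70, and the 10 genes were chosen with earlier results of these data known. The counts of the 10 genes, here and in the comparisons and fit that follow, are therefore descriptions. They are not tests against the shares of all genes. When every library was given an equal FPKM total, the higher share of all genes past 2-fold moved from 48.6% to 60.1%. The median log2 fold was 0.45 over the 10 genes and -0.07 over all genes. As ratios, FTL lay just inside the threshold at 2.19, and BLVRA, at 0.522, and NCOA4, at 1.53, lay outside it.

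MI-503 against DMSO had 0 of the 10 genes past 2-fold, where 2.16% of all genes were (1.18% higher, 0.984% lower). The median log2 fold was 0.12 over the 10 genes and -0.03 over all genes. The interval of the ratio lay above 1 for 4 genes (FTH1, FTL, NCOA4 and HMOX1) and below 1 for TFRC, where it lay above 1 for 18.6% of all genes and below 1 for 25.1%. A gene with many reads has a narrow interval, so these shares depend on the level. FTL was at 1.31 of DMSO (1.29 to 1.33) and FTH1 at 1.35 (1.27 to 1.43).

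The combination against DMSO had 3 genes higher (FTH1, HMOX1 and BLVRB) and 0 lower, where 8.73% of all genes were past 2-fold (4.98% higher, 3.76% lower). FTL, at a ratio of 1.999 (1.97 to 2.03), lay just under 2-fold on the log2(FPKM + 1) scale. The ratio was 2.51 (2.38 to 2.65) for FTH1, 8.69 (4.51 to 18.8) for HMOX1 and 2.95 (2.37 to 3.70) for BLVRB. These comparisons share the DMSO library with those of the single agents.

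SD70 on top of MI-503 (the combination against MI-503) put 1 of the 10 genes past 2-fold, BLVRB, where 4.38% of all genes were (2.74% higher, 1.64% lower). The median log2 fold was 0.42 over the 10 genes and -0.04 over all genes, and the interval lay above 1 for 7 genes and below 1 for 0, against 25% and 35.1% of all genes. MI-503 on top of SD70 (the combination against SD70) put 0 past 2-fold, where 1.8% of all genes were (0.846% higher, 0.952% lower). Here 5 of the 10 intervals lay below 1, those of FTH1 (0.818, 0.787 to 0.849), FTL (0.911, 0.901 to 0.921), SLC11A2, HMOX1 and BLVRB, and 2 lay above 1, those of TFRC and BLVRA (1.61, 1.10 to 2.38). Of all genes 14.1% had the interval below 1 and 19.3% above 1 in that comparison.

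**Figure D3:**
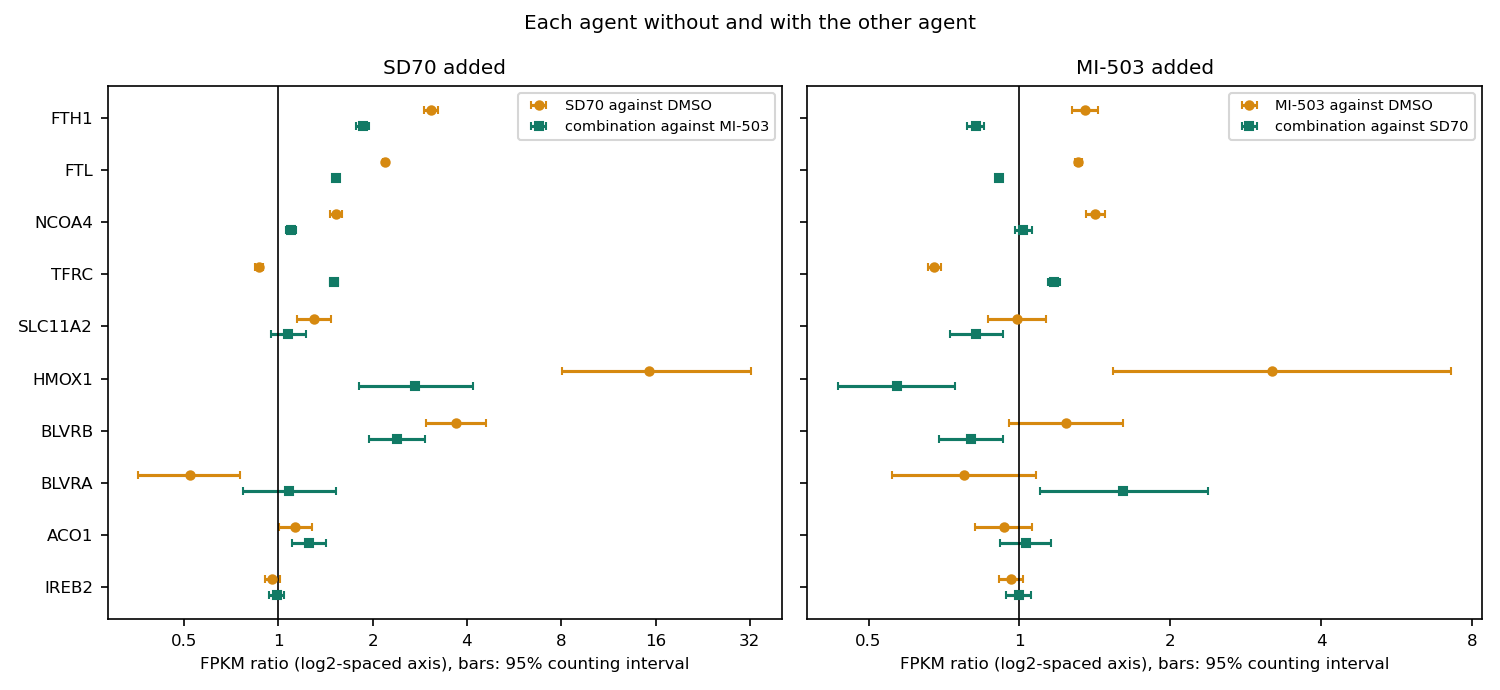
Ratio of FPKM for each agent without the other (circles) and on top of the other (squares), with 95% counting intervals on a log2-spaced axis. Left, SD70: FTH1, FTL, HMOX1 and BLVRB are above 1 in both pairs, while TFRC is at 0.866 and then 1.501. Right, MI-503: TFRC is at 0.676 and then 1.17.

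A single fit used all 4 libraries, with an additive term for each agent, so that 2 libraries with SD70 were set against 2 without. In limma's moderated test, Benjamini-Hochberg adjusted over 12296 genes, 4 of the 10 genes passed the threshold as higher with SD70 and 0 as lower, where 22.5% of all genes were called (7.86% rose, 14.7% fell). Over all genes that was 966 up and 1802 down, which became 1119 and 1259 with an equal FPKM total in every library and 924 and 1194 with an equal read total. The log2 change on the log2(FPKM + 1) scale was 1.24 ± 0.19 (SE) for FTH1, with an adjusted p of 0.0226 in limma. It was 0.87 ± 0.12 for FTL (adjusted p 0.0224 in limma), and 1.39 ± 0.17 for BLVRB (0.0224). HMOX1, at 1.44 ± 0.32 (0.0363), entered the fit only through its high level in the SD70 libraries, so its value is a description and not a test of a rise. Each of the 4 was higher in 2 of 2 pairs of libraries that differ in SD70. The SD70 term is the mean of those pair differences, so this adds no support to the calls.

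NCOA4 missed the threshold at a log2 change of 0.37 ± 0.15 and an adjusted p of 0.128 in limma, and TFRC gave 0.19 ± 0.20 with 0.525. For BLVRA the change was -0.28 ± 0.22 with 0.382, and the other 3 genes had adjusted p between 0.272 and 0.834. The term for MI-503 called 0 of the 10 genes and 0% of all genes in limma, 0% higher and 0% lower, with 401 genes at an unadjusted p under 0.05. On the recovered reads, limma-voom called 8 genes for MI-503 (293 at an unadjusted p under 0.05) with library sizes from the deposited scaling, and 0 (202) with read totals as library sizes, and none of the 10 genes was among them. The fit has 1 residual degree of freedom, the departure from additivity taken as error, and without the mean-variance trend none of the 4 calls with SD70 passed (adjusted p 0.0514 to 0.0571 in limma). None passed without the filter on low values either (0.277 to 0.315).

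The combination was then set against the product of the single-agent ratios, which bears on the study's question of the pair but was not tested, since each treatment had 1 library. The departure is log2 of the combination level over that product, so a combination at exactly that product has a departure of 0. It was below 0 for 6 of the 10 genes and above 0 for 4, where 55.2% of 12106 genes were above 0 with a median of 0.05.

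Ferritin was below the product: FTH1 was at 159 FPKM where the product gives 263, a departure of -0.72 (-0.82 to -0.63, counting error only), and FTL at 4400 where it gives 6330, a departure of -0.52 (-0.55 to -0.50). HMOX1 was at 2.39 where the product gives 13.4, a departure of -2.48 (-3.57 to -1.40), which depends on the 10 reads of DMSO and becomes -1.17 with a pseudocount of 1. NCOA4 was at -0.48 (-0.56 to -0.39), BLVRB at -0.63 (-1.05 to -0.21) and SLC11A2 at -0.27 (-0.53 to -0.02); with a pseudocount of 5 the departures of BLVRB and SLC11A2 were -0.38 and -0.11. FTH1, FTL, HMOX1 and BLVRB were high in the combination, at less than the product.

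TFRC was above the product, at 90.2 FPKM where it gives 52.0, a departure of 0.79 (0.73 to 0.85), and 4.64% of genes were at least as high. BLVRA was above it too, at 1.05 (0.35 to 1.75), which becomes 0.73 with a pseudocount of 1 and 0.33 with 5. The intervals of ACO1 (0.15) and IREB2 (0.05) held 0.

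**Figure D4:**
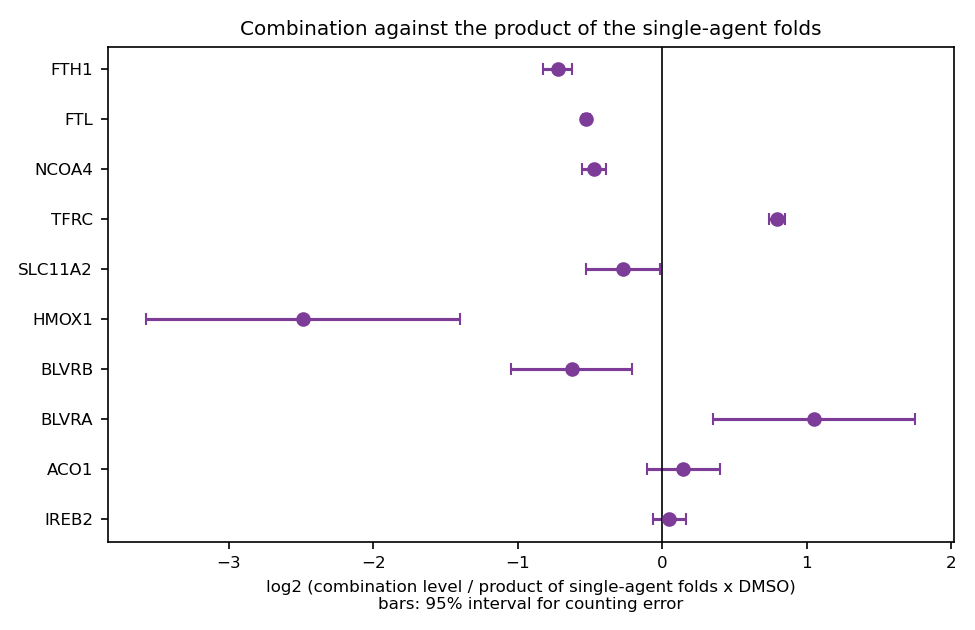
Departure of the combination from the product of the single-agent ratios, in log2, with 95% intervals for counting error. TFRC (0.79) and BLVRA (1.05) are above 0, and HMOX1 (-2.48) is farthest below.

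Around these 10 genes, 118 other iron and heme genes in 8 lists were followed, of which 86 had a mean of at least 1 FPKM. SD70 against DMSO had 1 of the 86 at least 2-fold higher and 5 lower, where 6.01% and 6.37% of all genes were. The combination against DMSO had 1 higher and 2 lower, where 4.98% and 3.76% of all genes were. The other 3 comparisons had 0. Of all genes, 2.16% (MI-503 against DMSO), 4.38% (combination against MI-503) and 1.8% (combination against SD70) were at least 2-fold apart in them. The 6 genes past 2-fold with SD70 against DMSO became 3 when libraries were given an equal FPKM total or an equal read total. In limma the SD70 term called 2 of the 86 as risen and 19 as fallen, beside the shares of 7.86% and 14.7% of all genes given for that fit. The median log2 fold for SD70 against DMSO was -0.15 over the 86 genes and -0.07 over all genes.

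The gene of this set that was higher was CTSD, cathepsin D, a lysosomal protease. It was at 18.4 FPKM with DMSO, 59.2 with SD70, 27.2 with MI-503 and 51.4 with the combination, a ratio of 3.22 for SD70 against DMSO (2.98 to 3.48), and rose in limma (adjusted p 0.0229). ALAS1, which catalyses the first step of heme synthesis, was the other gene called as risen, at 34.8, 49.2, 36.9 and 53.2 FPKM (adjusted p 0.0380 in limma). Of the 12 heme synthesis genes measured, 3 fell in the SD70 term, where 14.7% of all genes fell. FECH, which inserts iron into the ring, was at 6.76, 4.08, 6.60 and 4.16 FPKM (adjusted p 0.0316 in limma). ABCB10, a mitochondrial transporter, was at 32.0, 16.3, 33.8 and 23.7 FPKM (adjusted p 0.0341 in limma).

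Of the iron-sulfur cluster assembly genes, the longest list, 8 of 27 measured fell and 0 rose in limma, where 14.7% of all genes fell. The share that fell depended on level, being 2131 of 7193 genes at a mean of at least 5 FPKM. The list was not set against genes of like level. Its median log2 fold for SD70 against DMSO was -0.43. That of all genes was -0.07, or -0.18 at a mean of at least 5 FPKM. The count of the list's genes past 2-fold in that comparison went from 4 to 2 with an equal FPKM total or an equal read total. HSPA9, the mitochondrial chaperone of the pathway, was at 87.7 FPKM with DMSO, 32.4 with SD70, 71.3 with MI-503 and 40.5 with the combination (adjusted p 0.0229 in limma). GLRX5, a glutaredoxin that passes clusters on, was at 28.6, 13.2, 29.4 and 16.9 FPKM in the same order (adjusted p 0.0224 in limma). Both SD70 libraries were the low ones for each gene. BOLA3 and ISCA1, late factors of cluster delivery, stood at 0.292 and 0.456 of DMSO with SD70 alone (adjusted p 0.0239 and 0.0277 in limma). The others were NFS1, the desulfurase that supplies sulfur, and CIAPIN1, CIAO2A and CIAO2B of the cytosolic branch.

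In the uptake list 2 of 11 fell in the SD70 term, where 14.7% of all genes fell. SLC39A14, a zinc and iron importer, was at 29.1 FPKM with DMSO, 13.1 with SD70, 24.9 with MI-503 and 16.4 with the combination (adjusted p 0.0295 in limma). STEAP3, a ferrireductase of endosomes, was at 9.996, 5.55, 9.62 and 6.72 FPKM in the same order (adjusted p 0.0355 in limma). In the sensing list 3 of 6 fell, beside the same share of 14.7%. CUL1 and SKP1 are general parts of the ubiquitin ligase that uses FBXL5, and SDHB is an iron-sulfur subunit of the respiratory chain. Genes under 1 FPKM were left out of these counts. In the sensing list they were EPAS1, with 6, 101, 26 and 82 reads in the same order, ALAS2 (1, 2, 1 and 0) and CDC42BPA (1, 0, 0 and 0). SLC40A1, ferroportin, the iron exporter, had 3, 1, 0 and 1 reads and is given no ratio. FBXL5, the iron-sensing adaptor that directs the degradation of IREB2 protein, was at 8.55, 10.997, 10.3 and 11.4 FPKM, and missed the threshold (adjusted p 0.227 in limma).

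BACH1, the heme-binding repressor of HMOX1, was at 6.72 FPKM with DMSO, 9.67 with SD70, 7.02 with MI-503 and 9.31 with the combination (adjusted p 0.0630 in limma). NFE2L2, which encodes the activator NRF2, was at 14.3, 12.8, 10.9 and 12.5 FPKM in the same order (adjusted p 0.941). Both are controlled to a large degree as proteins, which these libraries do not measure. Of the 10 genes, all but FTH1 and HMOX1, 8 in number, had RefSeq promoter windows on GRCh38.p14 (250 bases before to 50 after the start), and among them the antioxidant response element core TGACNNNGC, searched on both strands, occurred in 1 window, of NCOA4, against 13.3% of 34943 windows, and the E-box CACGTG in 0 against 7.23%.

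**Figure D5:**
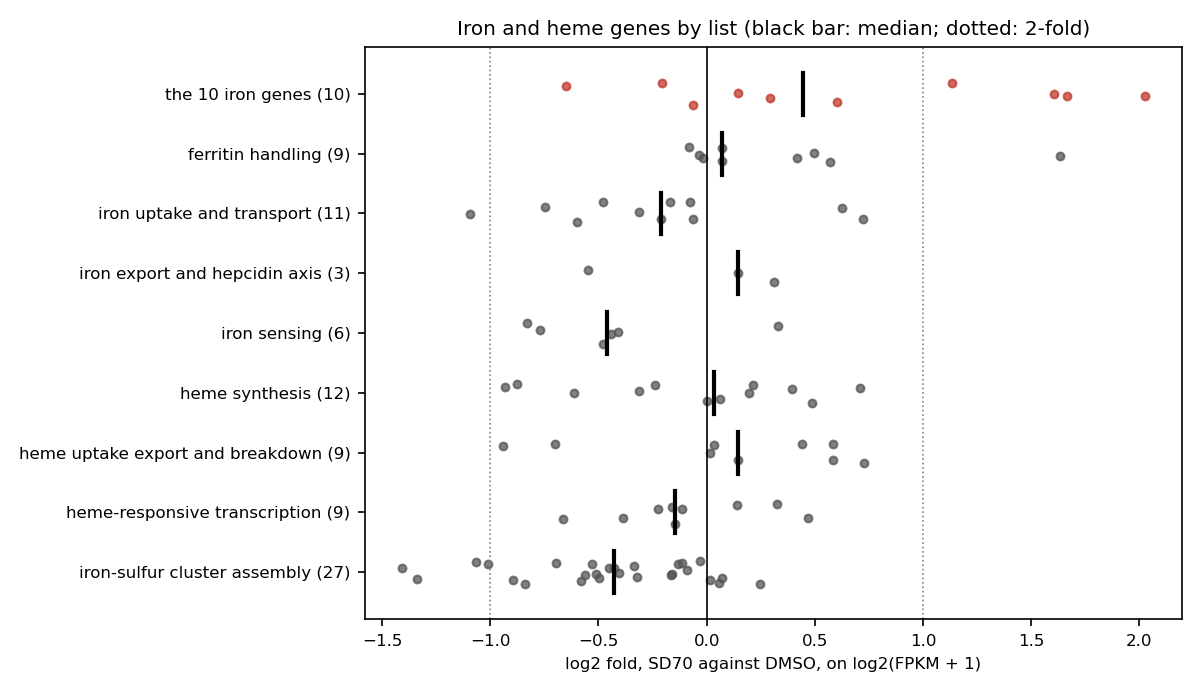
Log2 fold of SD70 against DMSO on log2(FPKM + 1) for the 10 genes (red) and for the measured genes of the 8 other lists (grey), with the number of genes in parentheses, black bars at the medians and dotted lines at 2-fold. The median is 0.45 for the 10 genes and -0.43 for iron-sulfur cluster assembly.

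Nearest patterns were taken by Euclidean distance over the 3 log2 folds against DMSO from 4 libraries. Those folds are on log2(FPKM + 1), which shrinks the fold of a low gene, so a near pattern is not an equal ratio. The protein-coding genes nearest to FTH1 were OAS1 (distance 0.0733), CLIP2 (0.0832), ARRDC3 (0.103), CREBRF (0.109) and NLRP1 (0.115). OAS1 went from 0.348 FPKM with DMSO to 3.06 with SD70 and NLRP1 from 0.202 to 2.39, while the ratio of FTH1 was 3.07. For FTL they were ZNF524 (0.0418), DIRAS1 (0.0502), LHPP (0.0709), ANO8 (0.0763) and PTPRC (0.0813). For HMOX1 they were GBP2 (0.107), IL10RA (0.172), TNFAIP2 (0.173), PIK3IP1 (0.194) and SDSL (0.205). TFRC had its nearest at larger distances than FTL, SUPT3H (0.118), RHOB (0.148), ZNF416 (0.152), LRRC69 (0.165) and FCGR1BP (0.178).

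The libraries held 14695753 to 15937390 recovered reads and 22062 to 24299 genes above 0. Mitochondrial ribosomal RNA took 1.497% and 1.43% of reads in the libraries with SD70 against 0.853% and 0.928% without, and the part of this in the iron results was not tested. All 10 myeloid markers had a mean of at least 1 FPKM, with a summed level of 5427 FPKM with DMSO, 3463 with SD70, 6559 with MI-503 and 4394 with the combination. Most of that sum was PRTN3 and ELANE, so it does not describe the markers as a set. PRTN3, a granule protease, was at 3018, 1567, 3767 and 2236 FPKM in that order, and ELANE at 1812, 1126, 1989 and 1293. CSF3R, a granulocyte growth factor receptor, was at 23.6, 60.7, 42.2 and 59.1. The markers went in different directions. CEBPA, LYZ, SPI1, CSF3R and CD33 were above DMSO in both SD70 libraries, and PRTN3, ELANE, FLT3 and MYB were below it. MPO was below DMSO with SD70 alone and near it with the combination. The part of these differences in the iron results was not tested. Of 13 erythroid markers, 9 were at 0 in all libraries, hemoglobin genes and GATA1 among them, and the sum was 6.38 to 8.43 FPKM. Tissue macrophage markers summed to 0.0760, 0.187, 0.0412 and 0.197 FPKM in the order DMSO, SD70, MI-503 and combination, with CD5L and SPIC at 0. T cell and B cell markers summed to 9.97 to 14.6 and 1.06 to 1.88 FPKM, with CD3E and MS4A1 at 0. Epithelial or fibroblast markers summed to 1.08, 2.97, 1.86 and 2.84 FPKM in the same order, with EPCAM, COL3A1 and DCN at 0 in every library.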

How the data were processed

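The authors deposited 1 table per library with a value per Ensembl gene, read here as FPKM from the values, since the header names no unit; the submitters' processing notes name BWA, Bowtie and hg38 and give no roles. Multiplied by GENCODE 29 union-exon lengths, all values above 0 gave whole reads within 0.01, and the deposited FPKM were already scaled between libraries. No source used here gives the counter, annotation, kit or strand setting. RNA was extracted with Trizol, per the labels' protocols.

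Folds are on log2(FPKM + 1) over genes whose mean reached 1 FPKM, and 2-fold was the rule of size. Ratios have no pseudocount and carry exact conditional 95% Clopper-Pearson intervals; departures carry delta-method intervals. Both cover counting error only. The additive fit used limma 3.58.1 in R 4.3.3 with a mean-variance trend, 2-sided, with Benjamini-Hochberg adjustment at 0.05, and was tested on simulated data; limma-voom on the recovered reads took its library sizes from the deposited scaling, or from read totals, a choice made after the data were seen. Figures used matplotlib 3.10.9. The 10 genes and all lists were chosen with earlier results of these data known. Besides the 10 genes, the text names listed genes at least 2-fold apart with SD70 or the combination against DMSO, role genes (BACH1, NFE2L2, SLC40A1, HMOX2, FBXL5), the 5 nearest patterns for 4 genes and ferritin copies. ALAS1, FECH, ABCB10, STEAP3, NFS1, CIAPIN1, CIAO2A, CIAO2B, CUL1, SKP1, SDHB, EPAS1, ALAS2, CDC42BPA and BEST1 were named after their values were seen. Alternatives were other pseudocounts, filters, scalings and folds.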

Additional observations from a re-analysis of the deposited data

Results flagged for a closer look

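In 5 cases the ratio for 1 agent lay on opposite sides of 1 without and with the other agent with both counting intervals away from 1, each with 1 library per treatment, so that the difference was not tested. For MI-503 these were TFRC, at 0.676 without SD70 and 1.17 with it (a difference of 0.79 in log2), FTH1, at 1.35 and 0.818 (-0.72), FTL, at 1.31 and 0.911 (-0.52), and HMOX1, at 3.19 and 0.571 (-2.48). For SD70 it was TFRC, at 0.866 without MI-503 and 1.501 with it (0.79), which is the same departure counted again. All these differences are the departures from the product given above. The TFRC drop with SD70 alone became smaller when libraries were scaled to a common total. The share of all genes that meet this rule was not counted, and genes with many reads meet it more easily.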

How the results depend on the processing

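Of the 280 log2 folds of the 10 genes under the alternatives, 248 were labelled as unchanged and 32 as moved. The label weighs the shift from the fold as run against the size of counting error. A fold labelled unchanged can still lie outside the printed interval of its ratio, which has no pseudocount. Signs changed only for IREB2, NCOA4 and ACO1, at folds near 0, when libraries were scaled to a common total. The count of the 10 genes past 2-fold went from 0 to 1 for MI-503 against DMSO with a pseudocount of 0.1. For the combination against DMSO it went from 3 to 1 with a pseudocount of 5 and to 5 at 1.5-fold. For the combination against MI-503 it went from 1 to 2 with a pseudocount of 0.1, to 0 with 5 and to 4 at 1.5-fold, and against SD70 from 0 to 1 at 1.5-fold. Of the other iron and heme genes, 6 were past 2-fold with SD70 against DMSO; this became 2 with a pseudocount of 5, 3 at the same FPKM total, 3 at the same read total and 23 at 1.5-fold. At 1.5-fold the combination had 17 against DMSO in place of 3, and 8 against MI-503 in place of 0. The 4 calls with SD70 in limma became 0 without the trend and 0 with no filter on low values (adjusted p 0.277 to 0.315). HMOX1 was also lost with a pseudocount of 0.1 (adjusted p 0.0511 in limma), and NCOA4 was gained with limma-voom (0.0309, or 0.0417 with read totals as library sizes). Over all genes that term called 2768 as run, 0 without the trend (4769 at an unadjusted p under 0.05), 0 with no filter (5003), 4630 with limma-voom and 3834 with limma-voom on read totals, so limma-voom with 1 residual degree of freedom depended on the library sizes given to it. A mean of at least 5 FPKM left out HMOX1, SLC11A2, BLVRA and ACO1. No paired analysis was possible because each group had 1 library. The depth limits HMOX1 most, with 10 reads in DMSO.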
